A study of Rattus norvegicus with 6 samples.

Results

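The genes described here are 10 genes of the circadian clock: the activators Clock and Bmal1, the repressors Per1, Per2, Per3, Cry1 and Cry2, the nuclear receptors Nr1d1 and Nr1d2, and Dbp, a transcription factor of the clock's output. The list is set by gene name and not by a cut on measured values, but it was chosen with earlier results of these data known. Each gene was read from the probe set that names it alone and has the highest mean intensity over the arrays. Its other probe sets served as a check. All 10 were measured, among 14217 genes with a probe set of their own on the array, and all 10 were among the 10334 genes tested. The study followed the choroid plexus of the lateral ventricles, the epithelial organ that secretes cerebrospinal fluid and forms the barrier between blood and this fluid, through the development of Sprague-Dawley rats. Affymetrix GeneChip Rat Genome arrays were hybridised with RNA from fetuses at embryonic day 19 (E19), pups at postnatal day 2 (P2) and adults, with 2 pools of tissue per stage and 6 arrays in all. No animal carried a transgene or received a treatment. The adults were males, and no sex is stated for the fetuses and pups. A pool held tissue of 3 adult or 5 developing animals; the labels speak of batches of 6 to 10 plexuses. The dams of the fetuses were under isoflurane anaesthesia. Animals lived on a light and dark cycle and came from either a French or an Australian supplier. Neither the hour of collection nor the supplier of a pool is given in the sources used here. Stage therefore cannot be told apart from hour of collection, supplier, sex or anaesthesia of the dam.

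The clock is a feedback loop of transcription that runs in nearly all cells with a period of about a day. Clock and Bmal1 proteins form a dimer that binds E-box sequences and switches on the Per and Cry genes, whose proteins return to the nucleus and silence the dimer. The same dimer drives Nr1d1 and Nr1d2, which encode the haem-binding repressors REV-ERB alpha and beta. These proteins repress Bmal1 through RRE sequences, where the activator RORA competes with them. Dbp, also an E-box target, activates genes through D-box sequences, the Per genes among them. The choroid plexus of adult rodents holds a strong clock of its own, and most of these transcripts rise and fall over the day, so that the level in a pool depends on the hour at which its tissue was taken.

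The sequences through which the loop's proteins act are shown for those genes whose promoters hold them. They were searched for in the 250 bases before each start site, on both strands, in the RefSeq promoter table of GRCr8, which held 11 promoters of 9 of the 10 genes (none for Cry1). The letters were CACGTG (E-box), CACGTT (a weaker E-box form), TTATGTAA and TTATGCAA (D-box), and TAGGTCA and TGGGTCA (core of the RRE). No pair of these motifs overlapped in the hits. Each line gives 30 bases, 5′ to 3′ on the strand of the gene, with the motif in capitals. AACGTG is CACGTT read on the other strand.
Bmal1, RRE core 16 to 10 bases before the start, chr1:176766298-176766327, plus strand: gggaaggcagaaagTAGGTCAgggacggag
Per2, E-box form 62 to 57 bases before the start, chr9:99497038-99497067, minus strand: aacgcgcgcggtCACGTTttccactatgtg
Per2, D-box 192 to 185 bases before the start, chr9:99497167-99497196, minus strand: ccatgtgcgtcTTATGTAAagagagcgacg
Nr1d1, E-box 191 to 186 bases before a start within the gene, chr10:84229628-84229657, minus strand: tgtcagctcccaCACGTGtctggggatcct
Nr1d1, E-box form 174 to 169 bases before the start, chr10:84231969-84231998, minus strand: cgcatagagctcAACGTGcccgctgctgga
Cry2, E-box form 212 to 207 bases before the start, chr3:98860632-98860661, minus strand: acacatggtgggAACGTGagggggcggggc
Of all 33469 promoters in the table, 5.59% held CACGTG, 4.07% held CACGTT, 0.828% held TTATGTAA, 0.789% held TTATGCAA, 2.26% held TAGGTCA and 3.44% held TGGGTCA. For Clock, Per1, Per3, Nr1d2 and Dbp these letters were not in this window. The only Per1 start listed lies within the gene (start 54304376, gene 54299002 to 54313804). The bases before the 5′ end of Per1 were therefore not searched. Listed starts of Clock, Per3, Per2 and Bmal1 also lie inside the gene bounds. A match is a stretch of letters, and binding was not measured on these arrays.

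The tissue carried several markers of choroid plexus epithelium at every stage. Transthyretin (Ttr), the thyroxine carrier of this epithelium, lay between 10837 and 14847 units, and the homeobox gene Otx2 between 10059 and 12608 units. Of 9 tested epithelial markers, 1 was higher and 4 were lower at E19 than in the adult, and 0 were higher and 4 lower at P2. The lower ones were Prlr (21.8-fold at E19 and 15.5-fold at P2), Slco1c1 (5.28-fold and 3.24-fold), Kl (3.38-fold and 3.17-fold) and Enpp2 (1.70-fold and 1.30-fold). A further marker, Kcnj13, lay under 100 units on every array and was not tested. The counts in this paragraph stand beside 31.4% higher and 25.2% lower of all tested genes at E19. At P2 these shares were 28.8% and 21.8%. Other cells moved with stage as well: all 7 tested endothelial markers and all 10 cell cycle genes were higher at both E19 and P2 than in the adult, as were 7 of 8 fibroblast genes, and 5 of 5 astrocyte and oligodendrocyte markers were lower at E19 and 3 of 5 at P2. Of 4 tested erythroid genes, 4 were higher at E19 and 3 at P2. The 8 macrophage and myeloid genes went both ways, with 2 higher and 2 lower at E19 and 5 higher and 2 lower at P2. Among them the mannose receptor Mrc1 exceeded the adult by at least 7.44-fold at E19, while Cd74, the invariant chain of antigen presentation, was 12.2-fold lower. Of 3 tested neuronal genes, 1 was lower at E19, and 2 were higher and 1 lower at P2. Mbp, the myelin basic protein, read 1989 and 656 units in the adult pools and under 100 units at E19 and P2. Aanat, an enzyme of pineal melatonin synthesis, stayed under 100 units on all 6 arrays. Of 7 pinealocyte markers with a probe set, only Rom1, a membrane protein of photoreceptor discs, could be tested. The other 6, Aanat among them, lay under 100 units in both pools of every stage. Rom1 read 89.4 and 124 units at E19, 181 and 196 units at P2 and 491 and 564 units in the adult, and was called lower at E19 (log2 fold change −2.32, adjusted p = 0.000573) and at P2 (−1.48, adjusted p = 0.00272), as was Nr1d1. The part of these cells in the values of the clock genes was not tested, and in tissue RNA fewer cells of a type and less RNA per cell cannot be told apart.

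In comparison with the adult, the clock of the developing choroid plexus showed lower Clock and Nr1d1 and higher Per2 and Cry1 at both stages. At E19, 2 of the 10 genes were called higher than in the adult (Per2 and Cry1) and 5 were called lower (Clock, Bmal1, Nr1d1, Nr1d2 and Dbp), at an adjusted p under 0.05 in limma. Of all tested genes 31.4% were called higher and 25.2% lower in this comparison. At P2, 2 were called higher (again Per2 and Cry1) and 2 lower (Clock and Nr1d1), where the background was 28.8% higher and 21.8% lower. The median log2 fold change of the 10 genes was −0.39 at E19 and −0.14 at P2, beside 0.041 and 0.052 over all tested genes. The pools of E19 did not overlap those of the adult for 9 genes, 3 higher and 6 lower, against 44.3% and 38.6% of all tested genes. The pools of P2 did not overlap those of the adult for any of the 10 genes, 4 being higher and 6 lower, against 43.1% and 36.1%. In either direction 56.6% of all genes were called at E19 and 50.7% at P2, so that a call alone does not set a clock gene apart from other genes. Centring each array on its median moved every log2 fold change by −0.11 at E19 and −0.12 at P2. It changed the share of higher genes among the calls from 55.4 to 46.3% at E19 and from 56.9 to 45.4% at P2. Values below are relative to the deposited scaling.

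**Figure D1:**
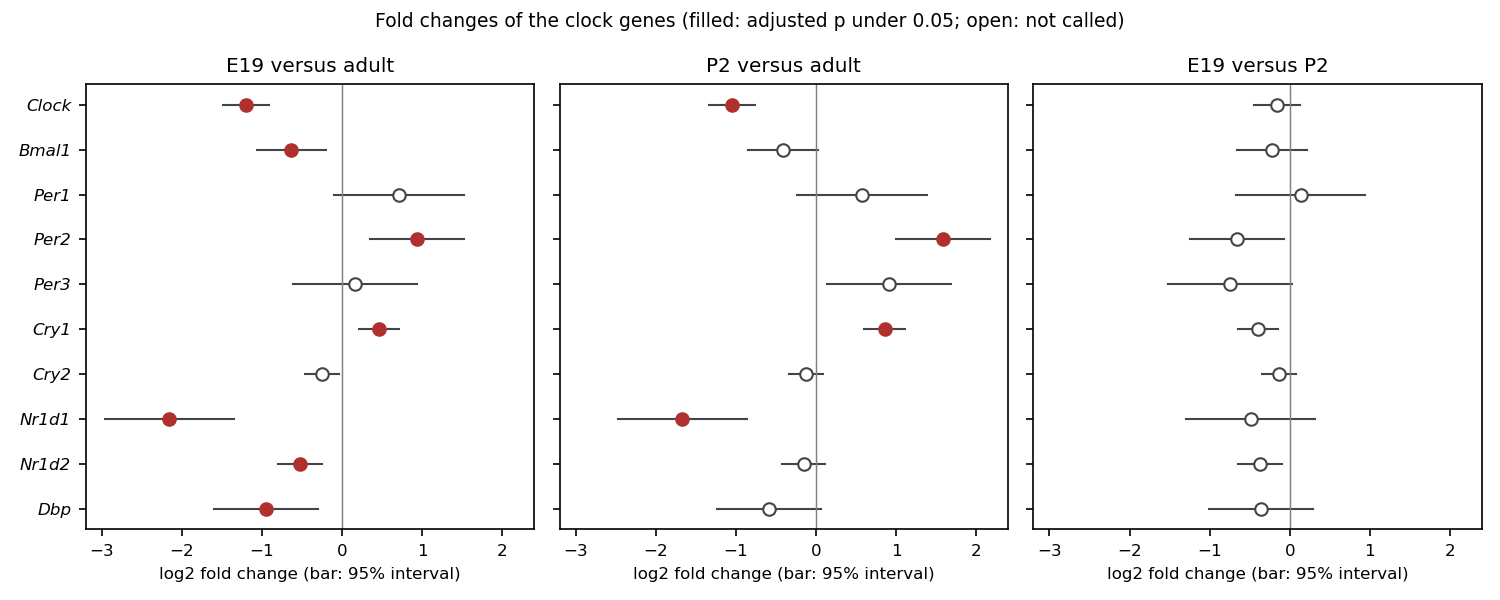
Log2 fold change of the 10 clock genes in 3 panels (E19 against the adult, P2 against the adult, and E19 against P2), with bars giving the 95% confidence interval of limma and filled points marking an adjusted p under 0.05. Against the adult, Clock and Nr1d1 lie below 0 and Per2 and Cry1 above 0 at both stages, the intervals of Per1 cross 0, and no point of E19 versus P2 is filled.

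Clock, the histone-acetylating partner in the activating dimer, had the smallest adjusted p of the 10 genes in both comparisons. Its probe set read 603 and 546 units in the E19 pools, 690.5 and 593 units in the P2 pools and 1316 and 1332 units in the adult pools. Every pool of E19 and P2 lay below both adult pools. Against the adult, Clock fell 2.31-fold at E19 (log2 fold change −1.21 ± 0.11 (SE), adjusted p = 0.000946) and 2.07-fold at P2 (−1.05 ± 0.11, adjusted p = 0.00184). A second probe set of the gene gave −0.81 for E19 (adjusted p = 0.00162) and −0.76 for P2 (adjusted p = 0.00243), both called. Another lay mostly under 100 units and gave −1.92 and −1.68 with adjusted p of 0.127 and 0.179, and the last read 30.1 units or less on every array and was not tested. With the mean over its probe sets Clock was no longer called, at −0.88 (adjusted p = 0.0592) for E19 and −0.81 (adjusted p = 0.0799) for P2.

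Bmal1, the other partner of the dimer and the one whose transcript cycles, read 146 and 165 units at E19, 156 and 210.3 units at P2 and 231 and 251 units in the adult. The adult pools were the highest of the 6. Bmal1 was 1.55-fold lower at E19 than in the adult (−0.63 ± 0.17, adjusted p = 0.0273), and the difference at P2 (−0.41 ± 0.17) had an adjusted p of 0.0985. The call at E19 ended when any of the 4 arrays of these stages was left out, with values from −0.72 to −0.54 and adjusted p from 0.0621 to 0.125. Without P2 pool 2 the P2 difference was called (−0.63, adjusted p = 0.0336).

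**Figure D2:**
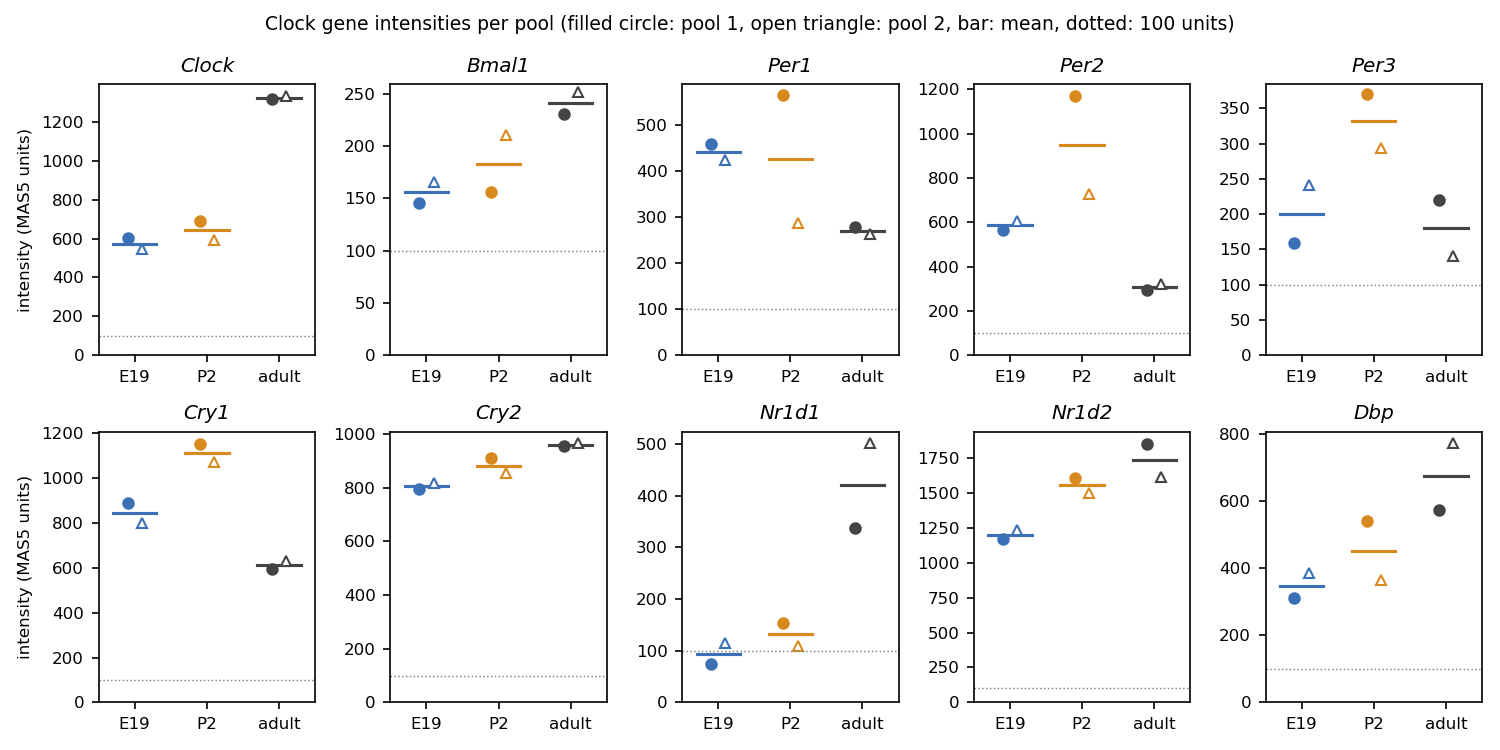
Deposited intensity of the 10 clock genes (linear axis from 0 in MAS5 units, with its own range for each gene) at E19, P2 and in the adult, with a filled circle for pool 1, an open triangle for pool 2, a bar for the stage mean and a dotted line at 100 units. Both adult pools of Clock and Nr1d1 lie above all developing pools, both adult pools of Per2 and Cry1 lie below them, and the P2 pools of Per1 are 565 and 287 units.

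The Per genes encode the period proteins, the labile repressors whose transcripts also respond quickly to light signals, glucocorticoids and cyclic AMP. Per2 showed the largest increase over the adult among the 10 genes. It read 566 and 604 units at E19, 1168 and 729 units at P2 and 294 and 319 units in the adult. All developing pools lay above the adult pools, and both P2 pools lay above both E19 pools. Per2 exceeded the adult 1.91-fold at E19 (0.93 ± 0.23, adjusted p = 0.0212) and 3.01-fold at P2 (1.59 ± 0.23, adjusted p = 0.00455). The P2 call held in every alternative run. With the mean over its probe sets, the second of which read under 30 units on every array, the differences shrank to 0.59 at E19 and 0.91 at P2, both called. At E19 the call ended without any 1 of the 4 arrays compared (0.87 to 0.99, adjusted p 0.0582 to 0.0936) and without the filter on low values (adjusted p = 0.0762).

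Per1, the most quickly induced of the period genes, read 459 and 425 units at E19, 565 and 287 units at P2 and 279 and 263 units in the adult. All developing pools lay above the adult pools, but P2 pool 2 lay close to the higher adult pool. Neither difference was called, with 0.71 ± 0.32 (95% confidence interval −0.10 to 1.52, adjusted p = 0.116) at E19 and 0.57 ± 0.32 (−0.24 to 1.38, adjusted p = 0.190) at P2. The spread of Per1 came mainly from the P2 pools: without P2 pool 1 or without P2 pool 2 the E19 difference kept its size and had an adjusted p of 0.00734. The P2 difference was 1.06 (adjusted p = 0.00816) without P2 pool 2 and 0.082 without P2 pool 1.

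Per3, which is least needed for the rhythm, read 160 and 242 units at E19, 370.2 and 294 units at P2 and 219.9 and 140.0 units in the adult. The E19 and adult pools overlapped, and the P2 pools lay above all others. The difference was 0.16 ± 0.30 at E19 (−0.61 to 0.94, adjusted p = 0.676) and 0.91 ± 0.30 at P2 (0.13 to 1.69, adjusted p = 0.0574). Without adult pool 1 the P2 difference was called (1.24, adjusted p = 0.0370).

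The cryptochromes are the stable partners of the period proteins and the strongest repressors of the dimer. Cry1 read 887 and 801 units at E19, 1154 and 1071 units at P2 and 597 and 630 units in the adult. The stages did not overlap, with P2 highest and the adult lowest. Cry1 exceeded the adult 1.37-fold at E19 (0.46 ± 0.10, adjusted p = 0.0139) and 1.81-fold at P2 (0.86 ± 0.10, adjusted p = 0.00231), and the P2 call held in every alternative run. The E19 call ended without E19 pool 1 (0.38, adjusted p = 0.0815) and without adult pool 1 (0.42, adjusted p = 0.0554). Cry2, its paralogue, read 796 and 817 units at E19, 909 and 856 units at P2 and 954 and 965 units in the adult. The adult pools were the highest, but the stage means spanned only 1.19-fold. Neither Cry2 difference was called, with −0.25 ± 0.08 (−0.46 to −0.04, adjusted p = 0.0515) at E19 and −0.12 ± 0.08 (−0.33 to 0.09, adjusted p = 0.274) at P2. The E19 difference of Cry2 lay close to the threshold and was called in 7 alternatives, among them centring each array on its median (−0.36, adjusted p = 0.0161) and the mean over its probe sets (−0.89, adjusted p = 0.0285), the second of which read under 30 units on every array. The paralogues thus had differences of opposite sign, and the difference between them was not tested.

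Nr1d1 showed the largest change of the 10 genes. Its probe set read 74.5 and 114 units at E19, 155 and 109 units at P2 and 337 and 502 units in the adult, so that the E19 pools lay near the floor of 100 units used here. Both adult pools exceeded every developing pool. Against the adult, Nr1d1 was reduced 4.46-fold at E19 (−2.16 ± 0.32, adjusted p = 0.00391) and 3.18-fold at P2 (−1.67 ± 0.32, adjusted p = 0.0106). The E19 call held in every alternative run, and with intensities under 100 units set to 100 the difference was −1.95. At P2 the call ended without P2 pool 2 (−1.41, adjusted p = 0.0538). Nr1d1 (chromosome 10, 84224599 to 84231812, GRCr8) overlaps the thyroid hormone receptor gene Thra, on the opposite strand, by 1061 bases. Thra was also called lower at E19 (−1.32, adjusted p = 0.00175) and at P2 (−0.90, adjusted p = 0.00700), but with the mean over its probe sets neither was called, at −0.25 for E19 (adjusted p = 0.598) and 0.26 for P2 (adjusted p = 0.603). Whether the Nr1d1 probe set lies in the shared bases was not tested.

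Nr1d2, the second REV-ERB, read 1168 and 1232 units at E19, 1607 and 1499 units at P2 and 1848 and 1615 units in the adult. The pools did not overlap between stages and were ordered E19, P2, adult, though the higher P2 pool and the lower adult pool were 1607 and 1615 units. Nr1d2 was 1.44-fold lower at E19 than in the adult (−0.53 ± 0.11, adjusted p = 0.0111), and the value at P2 was −0.15 ± 0.11 (−0.42 to 0.12, adjusted p = 0.273). Its second probe set gave the same calls, with −0.86 (adjusted p = 0.00983) at E19 and −0.27 (adjusted p = 0.238) at P2. The E19 call ended without E19 pool 1 (−0.49, adjusted p = 0.0659).

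Dbp, the D-box activator whose transcript has one of the widest daily swings in many tissues, read 310.1 and 385 units at E19, 539.7 and 364 units at P2 and 574 and 773 units in the adult. The adult pools were the highest, and the P2 and E19 pools overlapped. Dbp fell 1.93-fold below the adult at E19 (−0.95 ± 0.25, adjusted p = 0.0277), and the value at P2 was −0.59 ± 0.25 (−1.24 to 0.06, adjusted p = 0.111). The E19 call ended without E19 pool 1 (−0.79, adjusted p = 0.125), E19 pool 2 (−1.10, adjusted p = 0.0617) or adult pool 2 (−0.73, adjusted p = 0.105). It also ended with the replicate number as a block (adjusted p = 0.0514).

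None of the 10 genes was called between E19 and P2, the comparison across birth, where limma called 6.17% of all tested genes, 2.56% higher and 3.61% lower at E19. At an unadjusted p under 0.05 there were 3, all lower at E19: Per2 (−0.66 ± 0.23), Cry1 (−0.40 ± 0.10) and Nr1d2 (−0.37 ± 0.11). Their adjusted p were 0.148, 0.0783 and 0.102, and 26.6% of all tested genes had an unadjusted p this low. The fitted value was below 0 for 9 of the 10 genes, against 51.8% of all tested genes, with Per1 the exception (0.13 ± 0.32), and the median was −0.36 beside −0.013 over all genes. Some of these values hung on single arrays. With 1 array left out, Bmal1 came up to −0.0053, Clock to −0.047 and Dbp to −0.073. Per1 ran from −0.36 to 0.62, whereas Cry1 stayed between −0.47 and −0.33. The E19 pools lay below both P2 pools for 5 genes and above them for none, where the background was 33.1% and 29.9%. With a prior variance that follows intensity, Cry1 (adjusted p = 0.0314) and Nr1d2 (adjusted p = 0.0300) were called lower at E19.

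The 2 pools of P2 stood apart in some of the clock genes and not in others. Per1 was 1.97-fold higher in P2 pool 1 than in P2 pool 2, and only 1.01% of all tested genes had a wider gap between these pools. Per2 was 1.60-fold higher in pool 1, Dbp 1.48-fold and Nr1d1 1.42-fold, with wider gaps in 2.88%, 4.44% and 5.90% of all tested genes. Bmal1 went the other way and was 1.35-fold higher in pool 2 (8.83% of genes with a wider gap). Per3 (1.26-fold) and Clock (1.16-fold) had gaps exceeded by 14.9% and 28.8% of genes. Cry1 (1.08-fold), Nr1d2 (1.07-fold) and Cry2 (1.06-fold) had narrow gaps, exceeded by 56.9%, 59.7% and 64.2% of genes. In all, 9 of the 10 genes read higher in P2 pool 1, against 49.7% of all tested genes, and the median gap was 1.30-fold beside 1.09-fold over all genes. At E19 the widest gaps were those of Nr1d1 (1.53-fold) and Per3 (1.52-fold), both higher in pool 2. Only 2.34% and 2.53% of all tested genes had wider gaps at E19, though Nr1d1 read 74.5 units in E19 pool 1. The E19 median was 1.11-fold over the 10 genes and 1.07-fold over all. In the adult, Per3 was 1.57-fold higher in pool 1, while Nr1d1 (1.49-fold) and Dbp (1.35-fold) were higher in pool 2. These adult gaps were exceeded by 5.68%, 6.95% and 11.6% of genes. The adult median was 1.09-fold over the 10 genes and over all. These gaps are given as a description of single pools, for which no replicate exists. Genes of other cells differed between the P2 pools too: 7 of 8 macrophage markers (median log2 0.40) read higher in pool 1. So did the astrocyte water channel Aqp4 (710.1 and 404 units), the only tested astrocyte or oligodendrocyte marker above 100 units at P2. Of the glucocorticoid-induced genes 6 of 10 did so, and of the immediate early genes 4 of 10. Their part in the gaps of the clock genes was not tested.

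**Figure D3:**
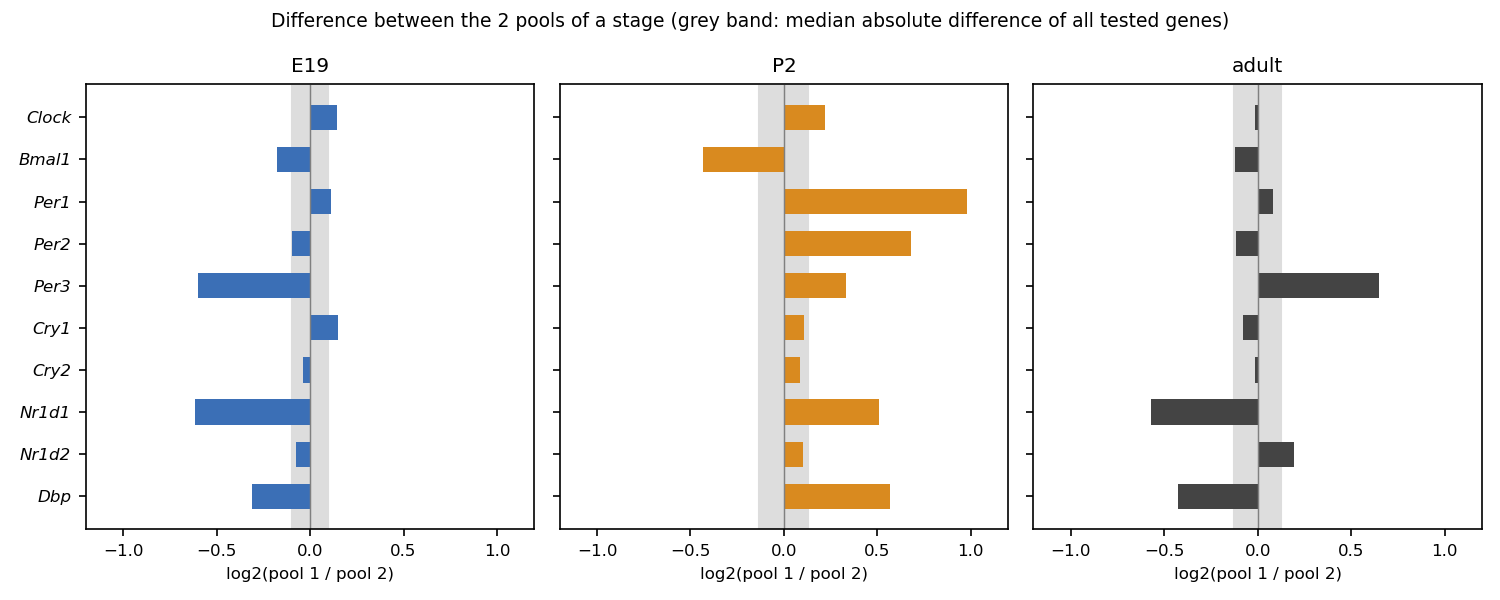
Bars give the log2 ratio of pool 1 to pool 2 for each of the 10 clock genes at E19, P2 and in the adult, and the grey band spans the median absolute ratio of all tested genes on either side of 0. At P2, 9 of the 10 bars lie above 0, with Per1 at 0.98 and Per2 at 0.68, and Bmal1 lies at −0.43.

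Other parts of the loop were measured as well. Of 14 genes listed as further core or modifying members, 10 were on the array by a probe set of their own, with 8 tested. At E19, 4 of the 8 were called higher than in the adult and 3 lower, and at P2, 3 were called higher and 3 lower. The shares of all tested genes were 31.4% higher and 25.2% lower at E19 and 28.8% and 21.8% at P2. Npas2, the paralogue that can replace Clock in the dimer, read 377 and 527 units at E19, 656 and 640.3 units at P2 and 1303 and 1373 units in the adult. All its developing pools lay below the adult pools, with differences of −1.59 at E19 (adjusted p = 0.00148) and −1.05 at P2 (adjusted p = 0.00663). Rora, the activator at RRE sequences, read 535 and 523 units at E19, 319 and 336 units at P2 and 787 and 710.0 units in the adult. Its differences of −0.50 at E19 (adjusted p = 0.00897) and −1.19 at P2 (adjusted p = 0.00078) were both called, the former not without E19 pool 2. The dimer's partners, the REV-ERB gene Nr1d1 and Rora were thus all below the adult at E19, each at the values given.

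Kinases and ligase subunits that set the lifetime of the period proteins went in both directions. Csnk1e, casein kinase 1 epsilon, was higher at E19 (0.95, adjusted p = 0.000957) and at P2 (0.83, adjusted p = 0.00181). Csnk1d, casein kinase 1 delta, gave 0.42 (adjusted p = 0.0143) and 0.32 (adjusted p = 0.0359), but the P2 call was lost on removal of any of the 6 arrays, and the E19 call on removal of an E19 pool or of adult pool 1. Btrc, the F-box protein that hands phosphorylated period proteins to the proteasome, was lower at E19 (−0.60, adjusted p = 0.00502) and at P2 (−0.76, adjusted p = 0.00296). Timeless, which in mammals mainly serves replication forks, exceeded the adult 3.36-fold at E19 (1.75, adjusted p = 0.000635) and 1.87-fold at P2 (0.90, adjusted p = 0.00583). All 10 cell cycle genes were higher at both stages too, and a link of Timeless to them was not tested. The RNA-binding protein Nono was called higher at E19 (0.39, adjusted p = 0.0234), but not when 1 of the E19 pools or adult pool 1 was removed or each array was centred on its median. The kinase gene Gsk3b was not called at either stage. Bmal2 and Rorb lay under 100 units at every stage.

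Of 14 genes listed as regulators at D-box and E-box sequences or as rhythmic outputs, 13 were tested. At E19, 4 were called higher than in the adult, 3 lower and 6 were not called, and at P2 the counts were 5, 3 and 5. In either direction 7 and 8 of the 13 were called, beside 56.6% and 50.7% of all tested genes. Nfil3, the repressor that competes with Dbp at D-box sequences, read 374 and 420 units at E19, 314 and 395 units at P2 and 125 and 91.3 units in the adult. The developing pools lay above both adult pools, and Nfil3 exceeded the adult 3.70-fold at E19 (1.89, adjusted p = 0.00137) and 3.29-fold at P2 (1.72, adjusted p = 0.00230). The adult pools lay near the floor of 100 units, so that the size of these folds is limited by background. Hlf, a D-box activator related to Dbp, was higher at P2 (1.10, adjusted p = 0.00315) and gave 0.27 at E19 (adjusted p = 0.156). Bhlhe40, a repressor at E-boxes, lay under 100 units in all developing pools and read 365 and 218 units in the adult. It was at least 2.82-fold lower at both stages, against a floor of 100 units (adjusted p = 0.00494 and 0.00653).

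The cold-inducible RNA-binding proteins, whose transcripts follow the daily cycle of body temperature, were higher before adulthood. Cirbp read 2199 and 2460.3 units at E19, 2189 and 2103 units at P2 and 503 and 459 units in the adult. The excess over the adult was 4.84-fold at E19 (2.28, adjusted p = 0.000148) and 4.47-fold at P2 (2.16, adjusted p = 0.000219), with no overlap between developing and adult pools. Rbm3 was higher at P2 (0.75, adjusted p = 0.00269), and its E19 call (0.28, adjusted p = 0.0474) ended without any of the 4 arrays compared. Usp2, a deubiquitinase, was lower at both stages (−0.77, adjusted p = 0.00608, and −0.66, adjusted p = 0.0118). So was Por, the reductase that passes electrons to cytochromes P450 (−0.80, adjusted p = 0.0133, and −0.85, adjusted p = 0.0127), though its calls ended without E19 pool 2 and without P2 pool 2. Between E19 and P2 the calls in these lists were Rora (0.69, adjusted p = 0.0263) and Timeless (0.85, adjusted p = 0.0385), higher at E19, and Hlf (−0.83, adjusted p = 0.0391) and Rbm3 (−0.47, adjusted p = 0.0498), lower. Each of these 4 calls ended when any of the E19 or P2 arrays was left out. With the mean over the probe sets of a gene, the calls of Rora, Hlf and Rbm3 ended too, and the Rora difference fell to 0.11.

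**Figure D4:**
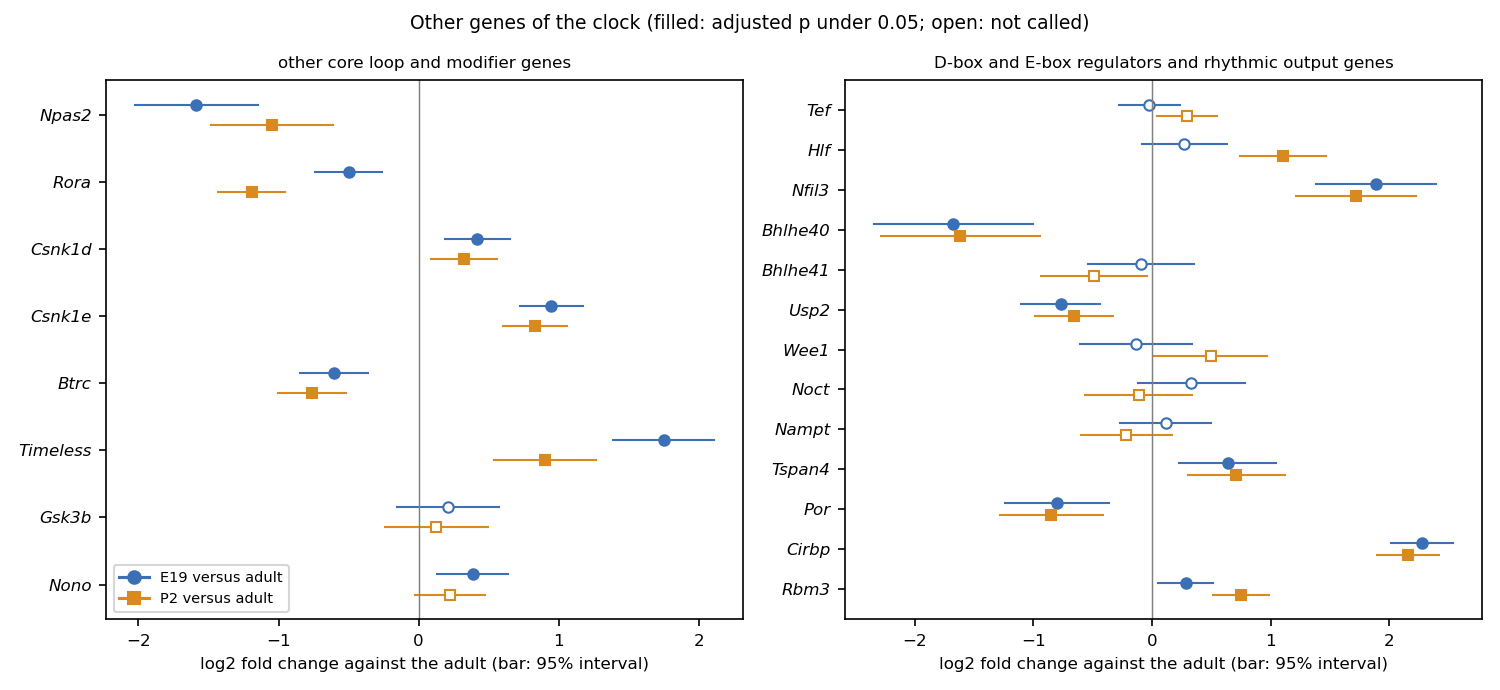
Log2 fold change of the tested further loop genes and output genes in developing against adult choroid plexus at E19 and P2, with circles for E19, squares for P2, bars for the 95% confidence interval of limma and filled symbols for an adjusted p under 0.05. Cirbp and Nfil3 lie above 1.5 at both stages and Npas2 below −1, while the points of Bhlhe40 rest on developing pools under 100 units and are no measured fold.

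Genes that respond within hours to hormones or handling, signals that also reach the Per genes, were read in 2 lists. The glucocorticoid-induced genes were called in both directions, and the immediate early genes were called mostly higher than in the adult. Of 10 tested glucocorticoid-induced genes, 5 were called higher and 3 lower than in the adult at E19, and likewise 5 and 3 at P2, where 56.6% and 50.7% of all tested genes were called in either direction. Tsc22d3 (GILZ) read 2553 and 2493 units at E19 and 888 and 1148 units in the adult and was higher at E19 (1.32, adjusted p = 0.00141) and at P2 (1.09, adjusted p = 0.00324). Fkbp5, a chaperone of the glucocorticoid receptor, gave 1.17 at both E19 (adjusted p = 0.00644) and P2 (adjusted p = 0.00774). Klf9, a transcription factor induced by glucocorticoids and thyroid hormone, went the other way, from 609 and 689 units at E19 to 3061 and 2866 units in the adult (−2.19, adjusted p = 0.000654), a call that ended with the mean over its probe sets. Sgk1, the kinase that raises sodium transport, was lower as well (−1.62, adjusted p = 0.000795). Of 10 tested immediate early genes, 9 were called higher and 1 lower at E19, and 8 higher and 1 lower at P2. The shares of all tested genes were 31.4% higher and 25.2% lower at E19 and 28.8% and 21.8% at P2. The median log2 fold change of the immediate early genes was 1.75 at E19 and 1.62 at P2. Fos rose to 317 and 404.5 units at E19 from 101 and 88.3 units in the adult, while Nr4a1 was the exception, at least 2.14-fold lower. Their part in the levels of Per1 and Per2 was not tested.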

How the data were processed

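RNA of lateral ventricle choroid plexus from 2 pools each at E19, P2 and adulthood was hybridised to Affymetrix GeneChip Rat Genome arrays. The authors deposited linear signal intensity from the MAS5 algorithm of Affymetrix Expression Console (versions not given in the sources used here). The table held 31099 probe sets, 57 of them controls, and 0 columns were left unused. Array medians lay between 100.1 and 126 units, and between 50.0 and 53.5% of probe sets reached 100 units. The number of arrays limits the precision.

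The tests covered the 17808 probe sets whose stage mean reached 100 units at 1 stage or more. R 4.3.3 and limma 3.58.1 were used to fit log2 intensities of the 6 arrays with stage as the only factor (3 residual and 2.15 prior degrees of freedom), after a test of the scripts on simulated data. The Benjamini-Hochberg adjustment was made over all probe sets tested, and an adjusted p under 0.05 was called. Every p comes from limma and is two-sided. A stage with both pools under 100 units enters a fold at 100 units, as a bound. Genes were named through the array annotation (20832 single-gene probe sets, 436 with several genes) and the RefSeq gene table of GRCr8, where 68 gene numbers found no match. The clock genes had 18 probe sets, and 5 of the 10 genes had more than 1.

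Named are all 10 clock genes, tested genes of the lists of further loop and output genes, up to 8 genes of other lists with the count of their list beside them, and the 5 closest profiles for 3 clock genes. The genes and lists were chosen with earlier results of these data known, so that no list was tested. Labels do not say that equal replicate numbers share a litter or day, and deviations of same-numbered pools correlated at −0.057, −0.041 and 0.0069, so that the numbers were not taken as pairs. The 2 pools of a stage are separate pools of animals. Alternatives changed the filter, centring, normalization, pseudocount, probe set, prior, arrays in the fit and threshold, left out each array in turn or added the replicate number as a block.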

Additional observations from a re-analysis of the deposited data

How the results depend on the processing

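The counts of clock genes moved with the filter, the threshold and single arrays. Without a filter on low values, 0 genes were called higher and 2 lower at E19 against the adult, in place of 2 and 5. At an adjusted p under 0.01 the counts were 0 and 2, and 1 gene was lower at P2. Leaving out 1 array gave 0 to 3 higher and 2 to 5 lower at E19 against the adult: 3 higher without either P2 pool, 0 higher without E19 pool 1 or adult pool 1, 1 higher without E19 pool 2 or adult pool 2, 2 lower without E19 pool 1, and 3 lower without E19 pool 2 or adult pool 2. Between E19 and P2, 1 gene was called lower with intensities under 100 units set to 100, and 2 with a prior that follows intensity. Values that changed sign were those of Per3 at E19 against the adult (−0.067 with quantile normalization, and −0.16 to 0.49 when 1 array was left out, below 0 without E19 pool 2 or adult pool 2), Per1 between E19 and P2 (−0.36 without P2 pool 2, 0.62 without P2 pool 1), and, with the mean over probe sets, Cry2 between E19 and P2 (0.014) and Thra at P2 (0.26). The cause was not tested. Per3 has no value with the mean over its probe sets, which falls under the filter.

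With the replicate number as a block, 2 clock genes were higher and 4 lower at E19 and 2 and 2 at P2, Dbp at E19 being the only lost call among them (−0.95, adjusted p = 0.0514). Over all probe sets the block left 49 higher and 72 lower between E19 and P2, in place of 624 and 645, and over all alternatives these counts ran from 0 to 1307 and from 0 to 1389. Over all alternatives the counts against the adult ran from 3455 to 5821 higher and 2602 to 5245 lower at E19, and from 2929 to 5339 and 1997 to 5010 at P2. Values near 100 units, such as those of Nr1d1 at E19, are limited by background.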

Other observations

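For the 3 clock genes with the widest range of stage means, the tested genes with the closest profile over the 6 arrays were listed by the root mean square difference of centred log2 intensities. For Nr1d1 these were Nlrc5 (0.19), Aldoc (0.21), Perm1 (0.23), Mfsd13a (0.23) and Snhg11 (0.23). Nlrc5 and Perm1 lay under 100 units in all developing pools and Mfsd13a in both E19 pools, so that their distances rest partly on background. Aldoc, the aldolase of brain, read 353 and 418 units at E19, 721 and 555 units at P2 and 1779 and 1836 units in the adult. Its higher value in P2 pool 1, as for Nr1d1, follows from its choice by a close profile over these arrays. For Per2 they were Kiaa0040 (0.15), Adap2 (0.15), Plat (0.17), Errfi1 (0.17) and Rhou (0.19). Rhou lay under 100 units at E19 and in the adult, and Kiaa0040 in the adult. Errfi1, an inhibitor of the epidermal growth factor receptor, is also on the list of glucocorticoid-induced genes. Its higher values at E19 (1.05) and at P2 (1.49) follow from its choice by a profile close to that of Per2. They are no separate evidence, and a shared signal was not tested. For Clock the 5 closest were Hps6, Gdpd1, Cptp, Slc25a12 and Gaa, at 0.03 to 0.05. These are descriptions over 6 arrays, with no test.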
